A study of Caenorhabditis elegans with 4 samples.

Results

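The regions described here are PAX-1 binding regions of Caenorhabditis elegans embryos that lie close to another one. They were chosen by position alone, from a list of 917 regions that combines both ChIP replicates. A region belongs here when its midpoint is at most 10000 bp from the nearest other midpoint on the same chromosome, and 291 of the 917 regions (31.7%, 95% Wilson interval 28.8% to 34.8%) met that rule. A region is clustered only together with a neighbour, so this interval is too narrow. The remaining 626 regions are what the clustered ones are set against. Positions are on WormBase WS220 and are 1-based.

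The series has 2 samples of immunoprecipitated chromatin (ChIP) and 2 of unselected chromatin (Input), all from embryos of strain OP117 in a population of males and hermaphrodites grown at 20 °C. All 4 share the unc119(ed3) allele and the transgene wgIs117, which holds pax-1 with TY1, EGFP and FLAG tags and unc119, so the Input samples carry the transgene too. The transgene was brought in by bombardment. Antibodies against GFP, the green fluorescent protein part of the fusion, were used to collect the DNA that the tagged PAX-1 was crosslinked to. There is no Input list used here, no untagged strain among the samples, and nothing in the labels says whether the replicates came from separate cultures. Whole embryos were used, so a cluster does not show that its regions were occupied in the same cells.

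PAX-1 belongs to the paired-box transcription factors, which bind DNA through a conserved paired domain and act in embryonic patterning and organ formation in animals. A gene's regulatory DNA often holds several binding places for one factor, within a single promoter or in separate enhancers. The C. elegans genome is compact, so places a few kilobases apart may also belong to neighbouring genes. Peak callers work at a limited resolution, and a single place of binding can be listed as a pair of overlapping regions. Genes and sequences at these positions were not analysed here.

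Clusters were mostly small. Chaining regions at most 10000 bp apart gave 133 clusters, of which 111 held 2 regions, 19 held 3 and 3 held 4. They spanned 698 kb together, which is 0.696% of the 100.2 Mb listed for the nuclear chromosomes. The median span, counted from the first base to the last, was 4505 bp (quartiles 2600 and 8105 bp), and the range was 695 to 14803 bp. Some regions overlapped, and overlapping regions were taken as 1 site. There were 19 such sites of 2 regions each, so the 291 regions made 272 sites. Of the 133 clusters, 10 were a single overlapping site, and 123 held 2 or more separate sites. Among these 123, 108 had 2 separate sites, 14 had 3 and 1 had 4.

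Distances inside clusters fell into separate classes. The 19 overlapping neighbours had midpoints 199 to 258 bp apart with a median of 202 bp, and 17 of them were within 220 bp. The smallest distance between any neighbours was similar within the single lists, 195 bp in replicate 1 and 185.5 bp in replicate 2. No neighbours lay between 258 and 721 bp. The 139 separate neighbours within clusters were a median of 3868 bp apart (quartiles 2206 and 6908 bp), and 83 of them were at most 5000 bp apart. Counts per kilobase were highest between 1000 and 3000 bp, with 25 neighbours above 1000 to 2000 bp and 24 above 2000 to 3000 bp. They were 10 to 12 for each kilobase from 4000 to 10000 bp. A further 42 neighbours lay above 10000 to 15000 bp, so the spacing shows no break at the limit of the rule. The members nearest to the limit had a neighbour at 9976 bp (chromosome III at 9776018 to 9776513) and at 9967 bp (chromosome I at 6554387 to 6554882 and at 6564354 to 6564849). The nearest regions outside it had one at 10181 bp (chromosome II at 5379663 to 5380158) and at 10200 bp (chromosome V at 11029244 to 11029739 and at 11039444 to 11039939).

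**Figure D1:**
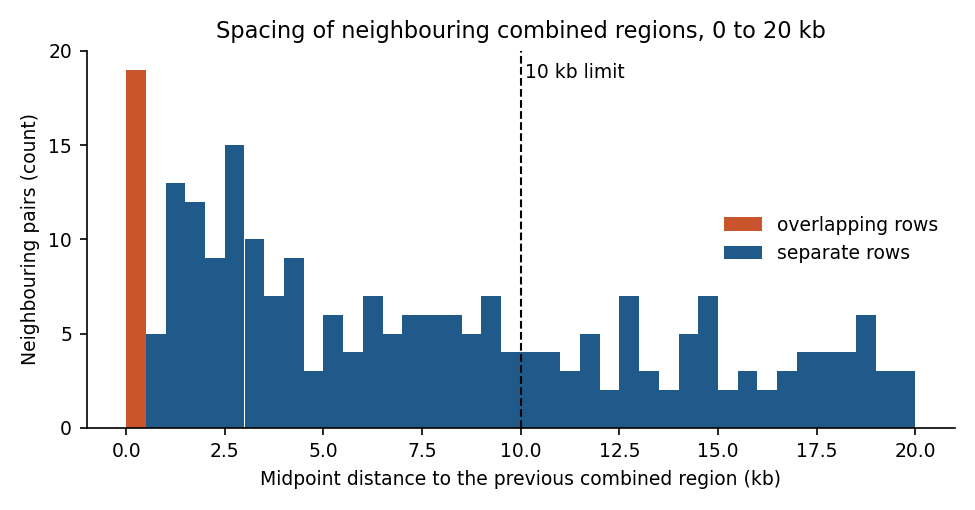
Histogram of the midpoint distance from each combined region to the previous one on its chromosome, in bins of 0.5 kb up to 20 kb. All 19 overlapping neighbours (orange) fall into the first bin, the 139 separate neighbours within the 10 kb limit (blue) are most frequent between 1 and 3 kb, and the counts run on past the dashed line at 10 kb.

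Of the clusters with 3 or more separate sites there were 15, on chromosomes I (5), II (1), III (6), IV (2) and V (1), and 0 on X. Chromosome X held 20 of all 133 clusters, and these small counts were not tested. The 15 clusters spanned 4640 to 14803 bp with a median of 10450 bp and held 48 regions. Of these regions 47 overlapped both replicate lists, as did 97.2% of all combined regions. The highest score of the combined list, 2.95, was carried by 26 of the 48 and by 47.4% of all combined regions, so neither count stands apart from the list. Each of the 15 clusters held at least 1 region at that score, as did 104 of all 133 clusters, and more regions per cluster make this more likely.

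The cluster with the most separate sites lay on chromosome III at 13060899 to 13070759 and held 4. Regions carry a number within their list, with 1 taken as the highest, and regions are called higher or lower by that number. Below the highest score the number does not always follow the score: number 455 had 2.49 and number 525 had 2.55. From left to right this cluster held numbers 90, 289, 652 and 152. Its neighbouring midpoints were 1471, 5842 and 2052 bp apart. Replicate 1 listed the highest overlapping regions as numbers 221, 633, 216 and 387, and replicate 2 as numbers 26, 257, 14946 and 98. The replicates thus placed 3 of the sites high and differed on the other, the region at 13068212 to 13068707, where their midpoints were also 383 bp apart. The next cluster by number of sites lay on chromosome I at 1835533 to 1842528. It held 3 sites in 4 regions, numbers 18, 457, 438 and 412, the last 2 of which overlapped. Replicate 1 listed its leading region, at 1835533 to 1835680, as number 15 and replicate 2 as number 29. On chromosome II at 10541926 to 10552375 the regions were numbers 444, 293 and 23, and all 3 were among the 917 highest nuclear regions of both replicates. On chromosome V at 14685496 to 14697209 an overlapping site (numbers 57 and 239) was followed, 9471 bp to the right by midpoints, by numbers 916 and 696. Number 916 had no counterpart in replicate 2 and number 696 was number 5750 there, so the replicates shared only the left site at high rank. On chromosome I at 9611503 to 9626305, the widest cluster at 14803 bp, the regions were numbers 844, 187 and 75, with the highest at the right end.

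**Figure D2:**
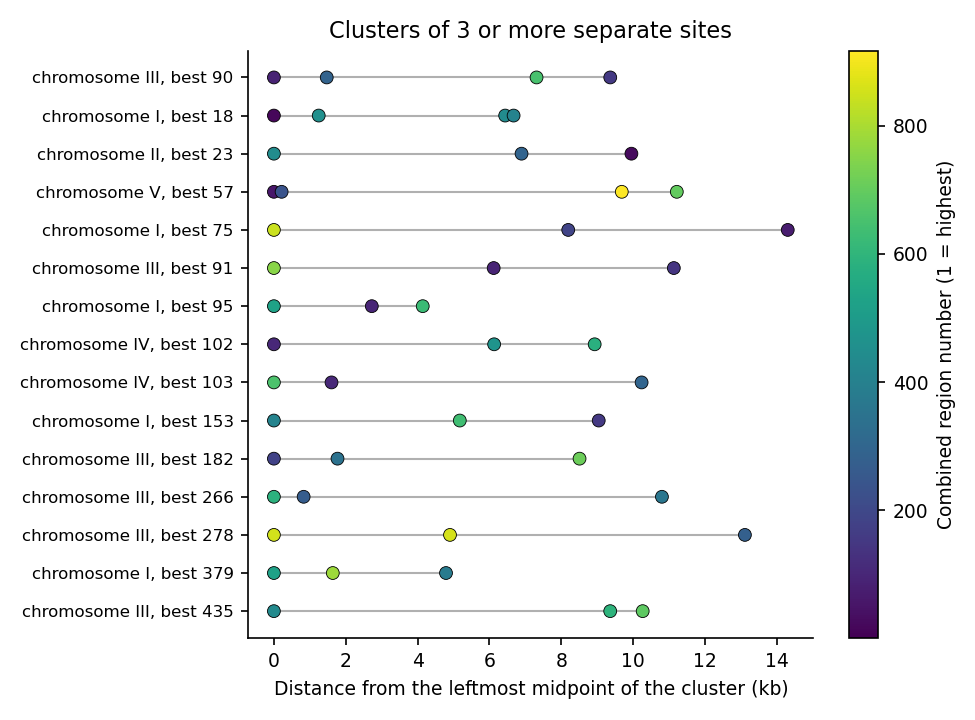
Midpoints of the regions in the 15 clusters of 3 or more separate sites, as distance in kb from the leftmost midpoint, with 1 cluster per line and its chromosome and lowest region number on the left. Colour gives the combined region number (dark is higher in the list), and high regions stand at either end or in the middle of a cluster.

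Of the 10 highest combined regions 4 were clustered, numbers 1, 6, 7 and 9, a share near the 31.7% of the whole list. Each was accompanied by a much lower region, which picking the highest numbers largely sets by itself. Over all clustered regions the median number was 438 (quartiles 209 and 649). Number 1 lay on chromosome X at 16929522 to 16929937, and number 691 lay 1642 bp to its right. Both replicates also listed the leading region as number 1, and they listed its companion as number 880 in replicate 1 and number 5620 in replicate 2. Number 6 on chromosome V at 11083613 to 11083797 had number 681 5147.5 bp to its left, and number 7 at 10897227 to 10897444 had number 738 2536 bp to its left. Those companions were numbers 478 and 490 in replicate 1 and numbers 3960 and 6455 in replicate 2. The companions of numbers 1, 6 and 7 were therefore within the 917 highest nuclear regions of replicate 1 but not of replicate 2. Combined regions in general were more often within those of replicate 1. The shares were 82.1% of clustered and 71.9% of remaining regions in replicate 1, and 59.5% and 55.8% in replicate 2. Number 9 on chromosome I at 14759392 to 14759611 had number 450 2665 bp to its left, number 967 of replicate 1 and number 196 of replicate 2. Number 12, on chromosome III at 8446960 to 8447207, had number 644 3185 bp to its left, number 983 of replicate 1 and number 1162 of replicate 2. Midpoints of the replicate regions at these 5 leading regions were 9, 38, 20.5, 34 and 33.5 bp apart.

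By region number, the clustered share was 35% for numbers 1 to 100 (interval 26.4% to 44.7%), 36% for 101 to 300, 31% for 301 to 600 and 28.7% for 601 to 917 (interval 24.0% to 33.9%). Those outer intervals overlap, and the ranges were chosen after the values were seen.

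In clusters of 2 separate regions, of which there were 101, the higher had a median number of 211 (quartiles 106 and 406) and the lower one of 611 (quartiles 403 and 780). That ordering makes a gap between the medians by itself. Both carried the highest score in 29 of these clusters, 1 of them in 48 and neither in 24. Over the whole list 47.4% of regions carried it, but that is a share of single regions, not of pairs. In 96 clusters both regions had a different counterpart in each replicate, and the same region was higher in both replicates in 47 (49.0%, interval 39.2% to 58.8%). Among neighbours more than 10000 bp apart it was 358 of 710 (50.4%, interval 46.8% to 54.1%), and that difference was not tested. The higher combined region was also the higher one in replicate 1 in 77 of the 96 clusters (80.2%) and in replicate 2 in 64 (66.7%), but the combined list was made from these replicates.

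**Figure D3:**
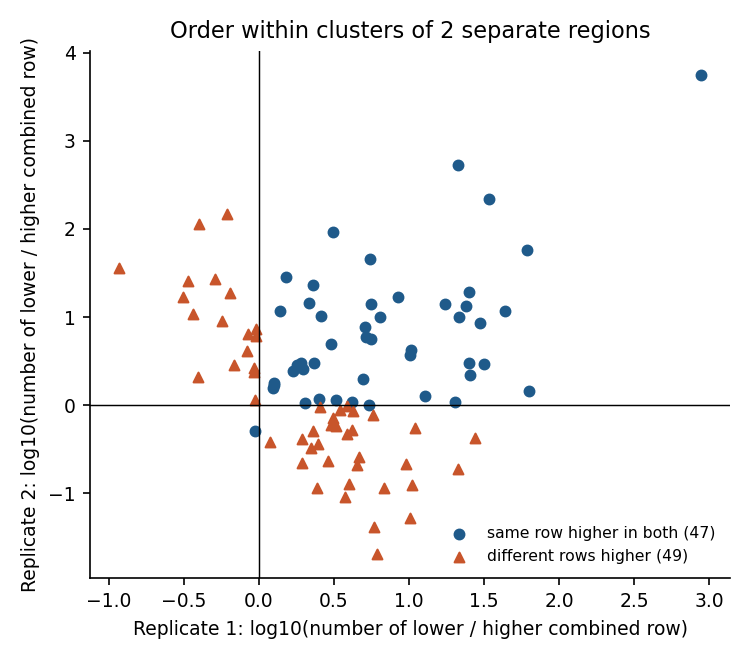
For 96 clusters of 2 separate regions, log10 of the lower over the higher combined region's replicate number, in replicate 1 (horizontal) and replicate 2 (vertical). Above 0, a replicate ordered the regions as the combined list did. Circles mark the 47 clusters where the same region was higher in both replicates, and triangles the other 49.

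The overlapping sites were of different kinds in the replicate lists. Beneath 10 of the 19 sites each replicate listed 2 or more regions, and at 9 sites the 2 combined regions had different nearest regions in each replicate. The site with the lowest number is an example, on chromosome II at 5844555 to 5845252 with numbers 17 and 425. Replicate 1 listed numbers 93 and 850 there, 1 and 3 bp from the combined midpoints, and replicate 2 listed numbers 15 and 385, 0 and 1 bp from them. Both libraries thus listed the same places about 200 bp apart. The next sites by number lay on chromosome V at 14685496 to 14686206 (numbers 57 and 239), on III at 10989267 to 10989961 (76 and 665), on X at 10765965 to 10766662 (151 and 583) and on X at 6741700 to 6742395 (204 and 661). In these, replicate 1 also listed 2 regions, but the weaker could rank very low, as number 26349 at the site on V and number 10199 at the site on III. At the X site with numbers 151 and 583, replicate 2 had 1 nearest region for both, number 943.

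At 3 overlapping sites each replicate listed only 1 region. On chromosome I at 1841798 to 1842528, the region of replicate 1 lay 1 bp from the left combined midpoint and that of replicate 2 lay 11 bp from the right one, 225 bp away. On chromosome II at 6831690 to 6832389 they were 1 bp from the left and 6 bp from the right combined midpoint, and 211 bp apart. On chromosome III at 10096338 to 10097032 they were 131 bp apart, that of replicate 2 being 1 bp from the right midpoint. In these 3 sites the pair of combined regions therefore stands over a single region of each replicate, and these sites were picked with their values in view. The higher combined region was the left one in 16 of the 19 sites. The median number was 274 for the higher and 668 for the lower region of a site, and of the sites 2 had both regions at the highest score, 11 had 1 and 6 had none. Chromosome X held 6 of the 19 sites, III held 4, II held 3, and I, IV and V held 2 each.

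Replicate support was compared between clustered and remaining regions, a measure the rule did not use. The combined list was made from these same replicates, so a high share is built in and leaves little room for a difference. Over the whole combined list 97.2% of regions overlapped a region of both replicates by at least 1 bp. It was 285 of 291 clustered regions (97.9%, interval 95.6% to 99.1%) and 606 of 626 remaining regions (96.8%, interval 95.1% to 97.9%), and the difference of 1.13 percentage points did not pass the test (Fisher's exact test, two-sided, Benjamini-Hochberg over 5 shares, adjusted p = 0.50). Its direction depends on the overlap asked for. With at least 50% of both regions it was 88.3% of clustered and 91.1% of remaining regions (Fisher's exact test, adjusted p = 0.34), and with midpoints within 200 bp it was 90.7% and 94.2% (Fisher's exact test, adjusted p = 0.34). Over all alternatives the adjusted p of that exact test ran from 0.34 to 1. In 127 of the 133 clusters every region overlapped both replicates. The 6 clustered regions that did not all overlapped replicate 1 alone, and they lay in 6 different clusters. Of the remaining regions, 19 overlapped replicate 1 alone and 1 overlapped replicate 2 alone. Replicate 1 has the longer list, with 29977 nuclear regions against 19169. The 6 clustered regions ranked between number 134 and number 915 in replicate 1. The highest of them in that list lay on chromosome X at 9102986 to 9103481, 923 bp from its neighbour.

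Clustered regions were more often among the highest of both replicates, but most alternatives did not keep that call. Over the whole combined list 40% of regions overlapped one of the 917 highest nuclear regions of each replicate. It was 135 of 291 clustered regions (46.4%, interval 40.7% to 52.1%) and 232 of 626 remaining regions (37.1%, interval 33.4% to 40.9%), 9.33 percentage points higher (Fisher's exact test, two-sided, adjusted p = 0.045). The test takes regions as independent, while regions of 1 cluster share a neighbourhood and those of an overlapping site can share a replicate region. With overlapping regions counted once the shares were 43.9% and 37.4% (Fisher's exact test, adjusted p = 0.20), and with 1 region per cluster they were 45.9% and 37.1% (adjusted p = 0.26). Over all alternatives the adjusted p ran from 0.0038 to 0.59. In replicate 1 alone 82.1% of clustered and 71.9% of remaining regions lay on its 917 highest (Fisher's exact test, adjusted p = 0.0038), and in replicate 2 alone it was 59.5% and 55.8% (adjusted p = 0.59). Whether the replicates differ in this was not tested. The median number of the highest overlapping region was 424 for clustered and 534 for remaining regions in replicate 1, and 515 and 741 in replicate 2. In 28 clusters every region was on the top of both replicates, in 62 some were, and in 43 none was.

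The other measures differed by less. The highest score was carried by 47.4% of all combined regions, by 145 clustered regions (49.8%, interval 44.1% to 55.5%) and by 290 remaining regions (46.3%, interval 42.5% to 50.2%), which did not pass (Fisher's exact test, adjusted p = 0.50). The upper 50% of the combined list, numbers 1 to 459, is 50.1% of all regions, and it held 155 clustered regions (53.3%) and 304 remaining regions (48.6%), which did not pass either (Fisher's exact test, adjusted p = 0.50). The fixed width of 496 bp was that of 96.2% of all regions, of 280 clustered regions (96.2%) and of 602 remaining regions (96.2%), where Fisher's exact test gave an adjusted p of 1. The 11 narrower clustered regions, 134 to 416 bp wide, had numbers between 1 and 198. The 24 narrower remaining regions, 124 to 324 bp wide, likewise had numbers between 2 and 138. Midpoints of the highest overlapping replicate regions were a median of 49.5 bp apart at 285 clustered regions (quartiles 20.5 and 108 bp) and 47 bp apart at 606 remaining regions (quartiles 19 and 102.5 bp).

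**Figure D4:**
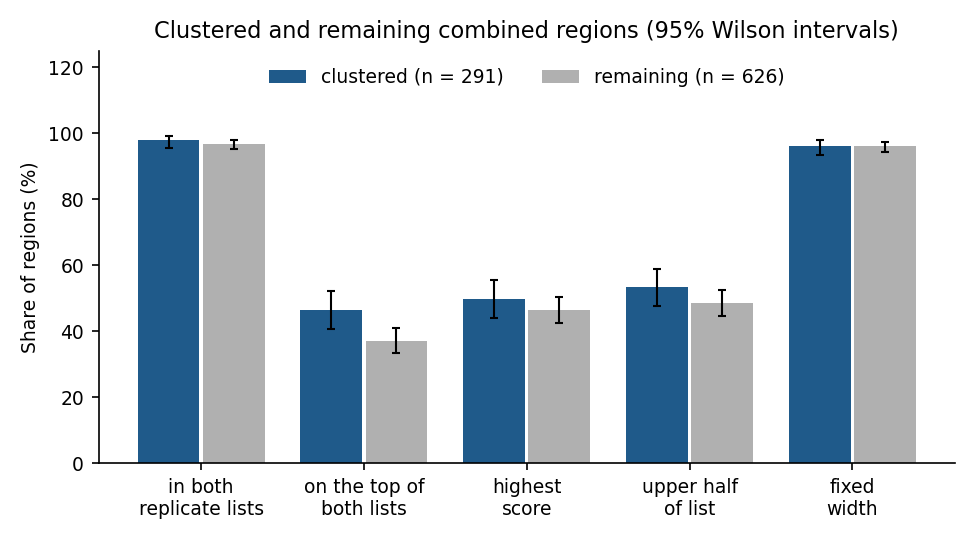
Share of regions (%) with each of 5 features, for clustered (blue, n = 291) and remaining (grey, n = 626) combined regions, with 95% Wilson intervals. Clustered and remaining regions were furthest apart for the top of both replicate lists, at 46.4% and 37.1%.

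Close neighbours were also counted in each single list at the same length. Among the 917 highest nuclear regions of replicate 1, 282 (30.8%, interval 27.9% to 33.8%) lay within 10000 bp of another, in 126 clusters. In replicate 2 it was also 282 of 917 (30.8%), in 127 clusters. Replicate 2 had more overlapping regions among its highest, 72 against 16 in replicate 1. The regions of replicate 2 were also wider, most often 520 bp against 410 bp, so its neighbours can overlap at larger midpoint distances. What this width adds to those counts, and to the shares that follow, was not tested. With overlapping regions counted once, the clustered share was 29.8% in replicate 1 (271 of 909 sites), 24.9% in replicate 2 (219 of 881 sites) and 29.2% in the combined list (262 of 898 sites). Other replicate regions also stood between the members of many clusters, and their ranks were not examined. Of the 123 clusters with separate sites, 95 had at least 1 other region of replicate 1 between their regions and 73 had at least 1 of replicate 2. Those 123 clusters had a median span of 4701 bp, and stretches of such length elsewhere were not counted for comparison. Within 5000 bp of clustered regions, replicate 1 listed 4.26 regions off the combined ones per 10 kb, against 3.62 within 5000 bp of remaining regions and 2.89 over the nuclear chromosomes. Replicate 2 listed 2.58 and 2.25 per 10 kb around clustered and remaining regions, and 1.80 over the nuclear chromosomes. These densities were not tested.

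Clusters occurred on all 6 nuclear chromosomes. Chromosome I held 31 of them, III held 26, V and X held 20 each, II held 19 and IV held 17. Per 10 Mb of listed length there were 20.6 on I, 18.9 on III, 12.4 on II, 11.3 on X, 9.72 on IV and 9.56 on V. That order differs little from that of the density of all combined regions, 12.9 per Mb on I and III, 9.49 on II, 8.18 on X, 7.72 on IV and 5.74 on V, and a denser chromosome gives more neighbours, so it was not tested. The share of a chromosome's regions that were clustered was 35.1% on I (68 of 194, interval 28.7% to 42.0%), 29.0% on II, 33.7% on III, 28.1% on IV, 35% on V (42 of 120, interval 27.1% to 43.9%) and 28.3% on X (interval 21.6% to 36.1%). All these intervals overlap. Chromosome V thus had the lowest density of regions and a clustered share close to that of I.

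In the worm, genes are denser in the centres of autosomes and repeats in their arms. As a rough stand-in, each chromosome was divided into 3 equal parts of its listed length. Borders of arms and centres were not used, so a middle part need not match a centre. Over all chromosomes the middle part held 117 of 291 clustered regions (40.2%, interval 34.7% to 45.9%) and 237 of 626 remaining regions (37.9%, interval 34.1% to 41.7%). The direction was not the same on every chromosome. On chromosome I the middle part held 40 of 68 clustered regions (58.8%, interval 47.0% to 69.7%) and 46 of 126 remaining regions (36.5%, interval 28.6% to 45.2%). On III it held 13 of 60 clustered regions (21.7%, interval 13.1% to 33.6%) and 49 of 118 remaining regions (41.5%, interval 33.0% to 50.5%). On V it held 12 of 42 clustered regions (28.6%) and 37 of 78 remaining regions (47.4%). The right part of V, picked with its values in view, held 24 clustered regions (57.1%, interval 42.2% to 70.9%) and 19 remaining regions (24.4%, interval 16.2% to 34.9%). Outer parts of other chromosomes differed in either direction. The left part held 9.52% of clustered and 25.2% of remaining regions on II, and 41.7% and 29.7% on III. On II, IV and X the middle part held 50%, 39.5% and 39.0% of clustered regions and 35.9%, 36.1% and 31.7% of remaining regions, with overlapping intervals. The rule uses positions, and members of a cluster share a part by construction, so these intervals are too narrow and no test was made.

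**Figure D5:**
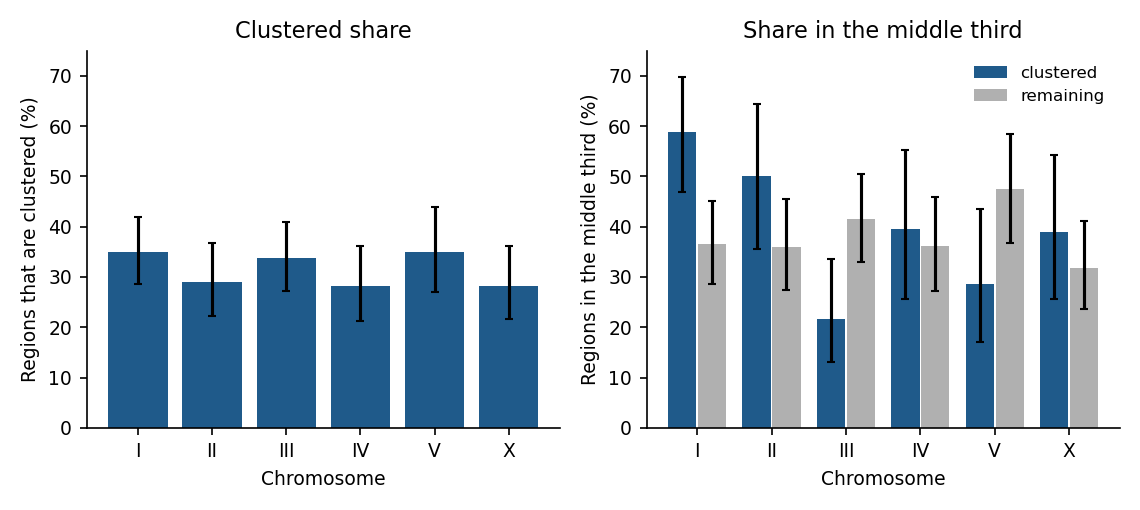
Left, share of each chromosome's combined regions that are clustered (%). Right, share of clustered (blue) and remaining (grey) regions that lie in the middle of 3 equal parts of the chromosome (%). Error bars are 95% Wilson intervals, which take regions as independent; in the right panel clustered regions are above remaining ones on I (58.8% and 36.5%) and below them on III (21.7% and 41.5%).

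Clusters were spread widely, and 69 of 103 windows of 1 Mb held at least 1. The fullest windows are given here as a description, picked with their values in view and with no test. The windows from 5 to 6 Mb on chromosome I and from 3 to 4 Mb on chromosome III each held 6 clusters with 13 regions. The window from 20 Mb to the end of chromosome V, at 20.9 Mb of listed length, held 5 clusters of 2 regions each. Those clusters lay at 20062599 to 20068805, 20334873 to 20341968, 20703977 to 20713490, 20745241 to 20749470 and 20845455 to 20852419. Their regions were numbers 82 and 241, 156 and 225, 839 and 142, 432 and 311, and 369 and 650, from left to right. All 10 overlapped both replicate lists, as did 97.2% of all combined regions. In replicate 1 they ranked between number 37 and number 1559, and in replicate 2 between number 122 and number 11364. The single cluster of the 5 with both regions on the top of both replicates was the one at 20334873 to 20341968, where the regions were numbers 323 and 408 in replicate 1 and numbers 122 and 217 in replicate 2.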

How the data were processed

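The lists hold regions in GFF version 3 on WormBase WS220, per the file headers. Their source column names SPP, a peak caller, and IDR, a procedure that compares replicate ranks. How reads were aligned, which versions and thresholds were used, and how Input and replicates entered are not stated in the labels or headers. The score of each region was deposited by the authors on a scale that is not stated. In the combined list it has a ceiling at 2.95, carried by 47.4% of regions. The highest score was 3.35 in replicate 1 and 2.37 in replicate 2, and how many regions carried those is not given here. Replicate 1 held 30000 regions and replicate 2 held 19190, of which 29977 and 19169 were nuclear and used. The lists give no read counts, so depth is unknown, and Wilson intervals cover the counting of regions only. They take regions as independent, so those of clustered shares are too narrow, also by rank, by single list and by chromosome.

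Midpoints at most 10000 bp apart were chained into clusters. A combined region matched a replicate region at 1 bp of overlap, and took the number of the highest match. The top of a replicate means its 917 highest nuclear regions. Chromosome lengths were the last base listed in any list. The 5 shares were compared by two-sided Fisher's exact tests over regions with Benjamini-Hochberg adjustment, at a threshold of 0.05, in Python 3.11.15 with scipy 1.17.1. Functions were tested on simulated data. The alternatives were other cluster distances, edge-to-edge gaps, stricter overlaps, overlapping regions counted once, 1 region per cluster, the upper 50% of the list and 1 replicate alone. Leaving out regions of overlapping sites was added after seeing the data.

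The members, tests and lists were chosen with earlier results of these data known. The positions named in the text were picked by a rule of their own, separate from the 10000 bp rule: the 5 clusters with the most separate sites, the 5 with the lowest number, the 5 overlapping sites with the lowest number, the regions nearest to 10000 bp, and clusters with 3 or more regions lacking a replicate, of which there were 0.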

Additional observations from a re-analysis of the deposited data

How the results depend on the processing

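No paired analysis was possible because region lists of Input were not used here and the tests count regions, not samples. For 9 results 62 alternative values were computed, of which 43 changed neither the direction nor the call, or, for counts and the span, stayed within 1.5 times the value given and, for the clustered share, within its interval. The share of clustered regions on the top of both replicate lists (46.4%) stayed above that of remaining regions in every alternative run. It no longer passed the test with a cluster distance of 5000 bp (45.7%) or 20000 bp (44.6%), overlapping regions counted once (43.9%), 1 region per cluster (45.9%), overlap of at least 50% of both regions (39.2%), midpoints within 200 bp (40.9%), or without the regions of overlapping sites (42.3%). With 1 replicate alone it was 59.5% to 82.1%, and it did not pass without replicate 1. The share overlapping both lists turned below that of remaining regions with 50% of both regions (88.3%) and midpoints within 200 bp (90.7%). The share of the fixed width turned below it with 5000 bp (95.98%) and with overlapping regions counted once (95.8%). By construction, 5000 bp gave 199 clustered regions (21.7%) in 97 clusters with a median span of 2605 bp, and 20000 bp gave 415 (45.3%) in 181 with 8577 bp. In the upper 50% of the combined list, which has fewer regions, 90 were clustered (19.6%) in 43 clusters. Fewer regions enter with 1 region per cluster or without overlapping sites, and beyond that the cause was not tested. Without read counts, what depth does to low-ranked neighbours could not be bounded.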
